A study of Mus musculus with 17 samples.

Results

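The genes that code for the replication-dependent histones were followed in purified primordial germ cells of mouse embryos, from which eggs and sperm descend, with and without ionizing radiation. They were taken as the entries of the deposited tables whose symbol starts with Hist1h, Hist2h, Hist3h or Hist4h, which gave 68 of 23361 genes at each embryonic day, 6 for H1, 18 for H2A, 19 for H2B, 12 for H3 and 13 for H4. At E11.5, 3 of these entries join the symbols of more than 1 gene. Total RNA freed of ribosomal RNA had been sequenced in 17 libraries. At E11.5 there were 2 irradiated (IR) and 3 untreated (noIR) libraries of unstated sex. At E13.5 there were 3 irradiated female (FIR) and 3 untreated female (FC) libraries, and 3 libraries each of the male sets coded MIR and MC. The titles and condition entries give MIR as untreated and MC as irradiated, which is the reverse of what the codes read, so the male sets are named by their codes and their changes are given as MIR minus MC. For one irradiated female library, replicate 1, the cell type entry reads E11.5 while its title and source read E13.5. The sources used here give no strain, genotype, dose or time after irradiation. They do not say whether replicates are separate litters, so a p-value measures the spread between these libraries only, which may be technical.

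Histones H2A, H2B, H3 and H4 form the core around which DNA is wrapped, and H1 binds the linker between these cores. Most of the supply in dividing cells comes from the replication-dependent genes, which sit in clusters, have no introns and are expressed with DNA synthesis. Their messages end in a short stem-loop bound by SLBP and carry no poly(A) tail, and they are broken down when DNA synthesis stops. Some of these genes, described mainly in human and mouse cells, can also give longer, polyadenylated messages that persist in cells that no longer divide.

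The stem-loop could be read from the annotation. Of the 67 genes with a coding transcript in GENCODE M21 (build GRCm38, the same assembly as mm10), 54 lie on chromosome 13, 10 on chromosome 3, 2 on chromosome 11 and 1 on chromosome 6; the remaining symbol, Hist3h2bb-ps, is a pseudogene. A consensus of 16 bases (a stem of 6 base pairs around a loop of 4 bases) was found on the sense strand after the stop codon in 45 of the 67, or 67.2%, and anywhere in the coding transcripts of 99 of 21877 coding genes, or 0.453%, these 45 included. Many of the other annotated transcripts end at the stop codon, such as those of Hist1h1b, Hist1h2ak, Hist1h3h, Hist1h4k and Hist2h2bb. Hist1h2bc was read from a spliced transcript of 2 exons. A site not found is therefore not shown to be absent from the gene. In Hist2h2be the consensus was not found although its annotated transcript, of 1 exon, has 2192 bases after the stop codon. The sites of 7 genes that the comparisons below turn on are printed 5′ to 3′ with the stem-loop in capitals and 5 flanking bases in lower case.
Hist1h1c: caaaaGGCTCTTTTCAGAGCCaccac
Hist3h2a: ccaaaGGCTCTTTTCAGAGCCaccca
Hist2h3c1: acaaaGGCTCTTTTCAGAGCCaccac
Hist1h3c: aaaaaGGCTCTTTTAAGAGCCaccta
Hist1h4b: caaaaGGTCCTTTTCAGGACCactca
Hist1h4d: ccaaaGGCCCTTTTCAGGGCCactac
Hist1h4i: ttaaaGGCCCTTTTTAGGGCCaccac
The H2A, H1 and H3 sites share the same outer stem, with GGCTC in Hist1h1c, Hist3h2a, Hist2h3c1 and Hist1h3c, whereas the H4 sites read GGCCC in Hist1h4d and Hist1h4i and GGTCC in Hist1h4b. What follows the stem-loop differs more than the stem-loop itself. The annotated transcript runs on for 840 bases in Hist1h1c (chr13:23738808-23740367, plus strand, 1 exon), 1643 bases in Hist3h2a (chr11:58954685-58956830, plus strand, 1 exon) and 1167 bases in Hist2h3c1 (chr3:96246685-96248509, plus strand, 1 exon). It ends 74 bases after the stem-loop in Hist1h3c (chr13:23744973-23745602, minus strand, 1 exon) and 28 bases after it in Hist1h4b (chr13:23757013-23757409, plus strand, 1 exon). In all, 23 of the 45 annotated transcripts reach 100 or more bases past the stem-loop. The hexamer AATAAA, the usual polyadenylation signal, was found after the stem-loop, or after the stop codon where the consensus was not found, in 19 of 67 histone genes (28.4%), against 76.8% of all coding genes, whose annotated transcripts have a median of 875 bases after the stop. For the 67 histone genes this median is 94 bases, so the shares come from stretches of unlike length.

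The promoters also differ by histone type. RefSeq windows from 250 bases before to 50 bases after the start (build GRCm38.p6) were at hand for 61 of the 68 genes, with 62 windows. Searched on both strands, CCAAT stood in 6 of 6 H1, 17 of 17 H2A, 17 of 17 H2B and 10 of 10 H3 windows, but in 3 of 12 H4 windows, against 37.4% of all 32851 windows. TATAAA stood in 56.5% of the histone windows against 13.6% of all. The octamer ATTTGCAT, known from H2B promoters, stood in 41.2% of H2A and 41.2% of H2B windows and in 0 of the H1, H3 and H4 windows, against 1.74% of all. Windows of neighbouring H2A and H2B genes can overlap, such as those of Hist1h2ae (chr13:23571171-23571470) and Hist1h2bg (chr13:23571150-23571449). With both strands searched, a site in the overlap counts for both types, so the H2A and H2B shares are not independent. The H1 box AAACACA stood in 5 of 6 H1 windows against 7.18% of all. The windows of Hist1h1c (chr13:23738557-23738856, plus strand), Hist3h2a (chr11:58954435-58954734, plus strand), the 2 genes with an entry that were called in both sexes, and Hist1h4d (chr13:23581318-23581617, plus strand), the gene with the smallest adjusted p between FC and MC, are printed with these motifs, on either strand, in capitals.
Hist1h1c: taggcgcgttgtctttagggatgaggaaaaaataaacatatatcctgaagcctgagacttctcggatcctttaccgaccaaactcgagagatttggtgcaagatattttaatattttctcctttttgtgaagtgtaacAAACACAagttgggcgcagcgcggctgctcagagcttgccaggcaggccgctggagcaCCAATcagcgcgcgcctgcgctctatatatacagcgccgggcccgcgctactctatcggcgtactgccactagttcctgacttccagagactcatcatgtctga
Hist3h2a: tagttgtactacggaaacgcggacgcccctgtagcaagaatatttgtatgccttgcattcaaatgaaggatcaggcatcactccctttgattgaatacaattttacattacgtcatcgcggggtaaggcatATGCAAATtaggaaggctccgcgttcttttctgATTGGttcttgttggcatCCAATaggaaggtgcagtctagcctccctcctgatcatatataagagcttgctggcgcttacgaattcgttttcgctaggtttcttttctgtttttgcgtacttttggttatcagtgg
Hist1h4d: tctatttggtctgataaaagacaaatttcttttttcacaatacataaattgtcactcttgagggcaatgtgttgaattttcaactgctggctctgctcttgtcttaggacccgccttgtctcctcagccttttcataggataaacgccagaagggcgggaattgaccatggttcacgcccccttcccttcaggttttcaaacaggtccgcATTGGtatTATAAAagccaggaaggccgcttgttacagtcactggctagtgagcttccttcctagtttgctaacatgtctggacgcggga
These matches describe the letters of the windows and were not tested against the expression values.

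Histone levels were low and most genes were near the limit of counting. The deposited unit is FPKM, the fragments of a gene scaled to its length and to the size of the library. Summed over the 68 genes it came to between 0.00483% and 0.0578% of a library's total FPKM. At E11.5, 11 genes were listed at 0 in every library and 49 reached 1 FPKM in at least 1 library. At E13.5, 10 were listed at 0 throughout and 38 reached 1 FPKM. In 18 H4, H2B and H2A genes, all 201 values above 0 were whole multiples, within 0.05, of 1 step for each library and model length, as if the gene models held only the coding sequence and 197 bases were subtracted from the length. Read that way, 1 fragment of an H4 gene was worth 0.427 to 0.746 FPKM at E11.5 and 0.315 to 0.621 FPKM at E13.5, and the libraries held about 11700000 to 20400000 fragments at E11.5 and 14000000 to 27600000 at E13.5, with noIR replicate 3 the shallowest. At E13.5, 81.5% of the 216 values of these 18 genes were 3 fragments or fewer. These depths rest on the assumed lengths and cover counting error only.

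Near-identical copies bear on many of these values. Of the windows of 50 bases in each coding sequence, a median of 10.9% in H1 genes was also found in a transcript of another gene, against 87.9% in H2A, 77.3% in H2B, 84.7% in H3 and 70.3% in H4. The 7 coding genes listed at 0 in all 17 libraries (Hist1h2ad, Hist1h2ah, Hist1h2ao, Hist1h2ap, Hist1h2bq, Hist1h2br and Hist2h2aa1) shared 95.6% to 100% of their windows. How the authors' counting treated shared fragments is not given in the sources used here, so levels of single genes are uncertain where copies are shared. Hist2h2be shared 0% and Hist1h1c 21.9%, whereas Hist1h2bc shared 97.6%, most often with Hist1h2bg, and Hist2h3c1 shared 100%, most often with Hist2h3c2 and Gm20634. Hist3h2a shared 100%, and the transcripts that held its windows most often were those of Trim17, a gene outside those followed here.

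At E11.5 the untreated libraries did not look alike. The summed level of the 68 genes was 161, 162 and 532 FPKM in noIR replicates 1 to 3 and 117 and 143 FPKM in IR replicates 1 and 2. Replicate 3 of noIR thus stood above all others, and without it the noIR libraries were 161 and 162 FPKM. H4 had the widest gap, with 46.6, 33.1 and 239 FPKM in noIR and 37.1 and 37.0 FPKM in IR. H3 came to 20.5, 16.4 and 79.1 FPKM in noIR and 20.1 and 16.8 FPKM in IR. H2B came to 62.0, 75.0 and 120 FPKM in noIR and 31.4 and 53.9 FPKM in IR, where every IR library lay below every noIR library. H1 and H2A were also highest in noIR replicate 3, at 50.2 FPKM against 10.3 to 19.0 FPKM and at 43.9 FPKM against 17.1 to 21.2 FPKM.

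**Figure D1:**
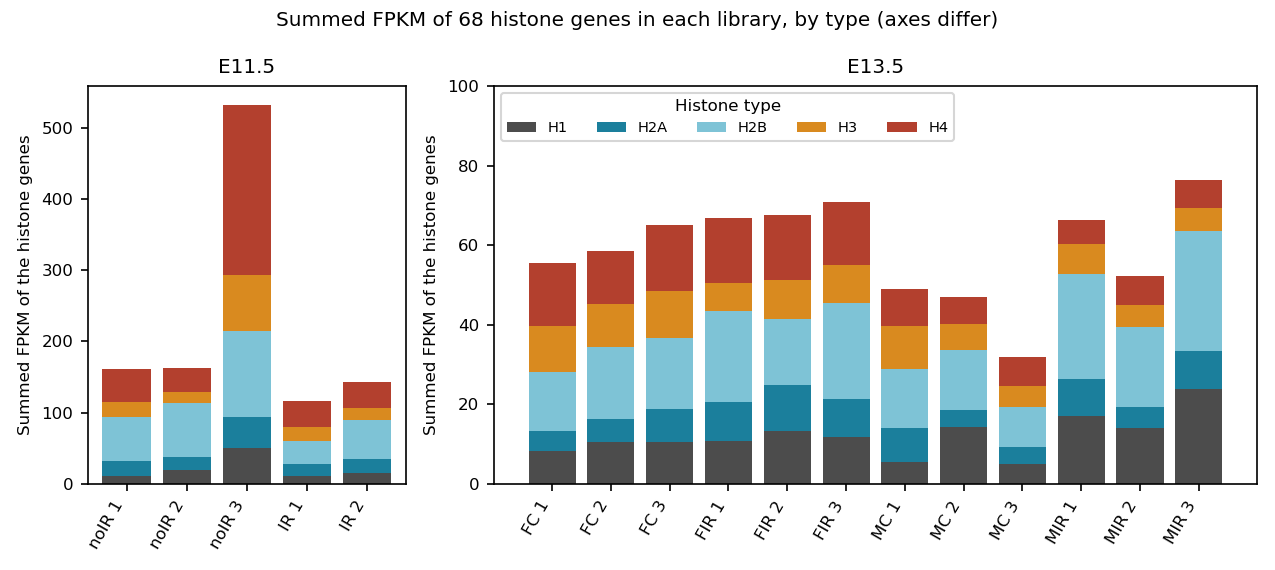
Summed FPKM of the 68 histone genes in each library, stacked by histone type, at E11.5 (left) and E13.5 (right); each bar is 1 library and the axes differ. The bar of noIR replicate 3 reaches 532 FPKM, of which H4 is 44.9%, while the other E11.5 bars end between 117 and 162 FPKM and the E13.5 bars between 31.8 and 76.4 FPKM.

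The excess in noIR replicate 3 was not shared by all histone genes. Of the 44 genes that reached 1 FPKM in at least 1 of the other 4 libraries, 33 were above all 4 there (75.0%), with a median ratio of 4.20 to the mean of the other 4. Over all 11933 genes chosen the same way, 24.9% were above all 4 and the median ratio was 0.97. The median ratio was 10.3 for 11 H4 genes, 4.50 for 4 H1, 4.13 for 8 H3, 3.18 for 9 H2A and 2.62 for 12 H2B genes. A further 5 histone genes (Hist1h1d, Hist1h2ac, Hist1h2be, Hist1h2bf and Hist4h4) reached 1 FPKM in noIR replicate 3 alone and are not in these counts. Hist1h4d was listed at 48.5 FPKM there and at 0.427 to 4.21 FPKM in the other 4. Hist1h4f, another H4 gene, was at 28.3 FPKM against 1.58 to 4.27 FPKM. Hist1h3e, an H3 gene, was at 23.1 FPKM against 1.66 to 5.91 FPKM, and Hist2h2bb, an H2B gene, at 23.1 FPKM against 1.80 to 5.94 FPKM. Other genes were not raised there. Hist1h2bc, the highest histone gene of the other 4 libraries, was at 42.2 FPKM there and at 17.4 to 51.7 FPKM in the others. Hist1h4i, the highest H4 gene, was at 10.7 FPKM there and at 11.6 to 17.6 FPKM in the others. Hist3h2a (1.80 against 1.63 to 4.95 FPKM) and Hist2h2be (0.616 against 0.773 to 1.76 FPKM) were not raised either. Genes whose annotated transcript holds AATAAA after the stem-loop or stop had a median ratio of 1.94 (11 genes), the rest 4.90 (33 genes), a difference that was not tested.

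**Figure D2:**
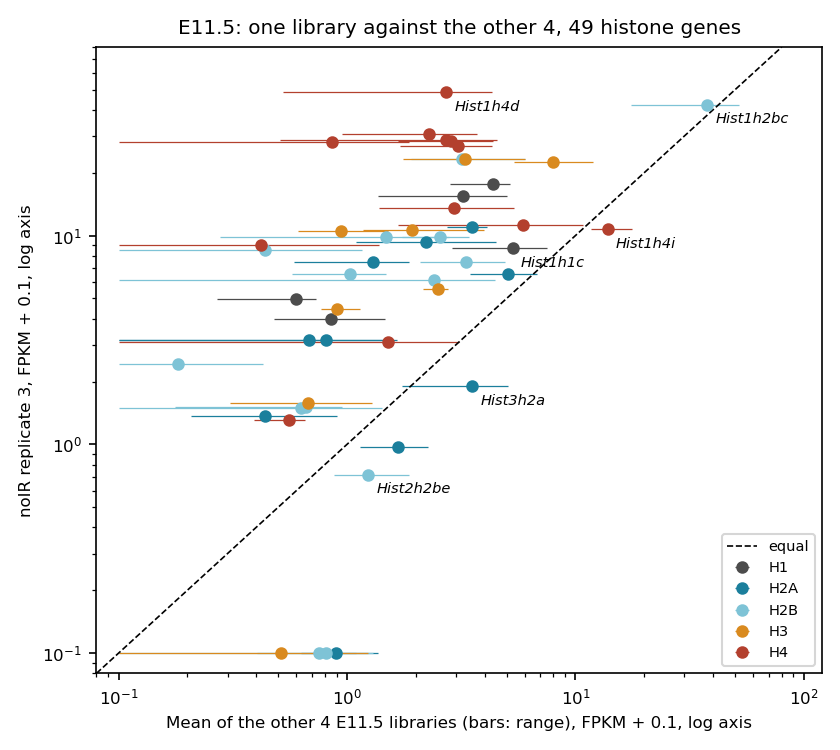
Level in noIR replicate 3 (vertical) against the mean of the other 4 E11.5 libraries (horizontal, bars from their lowest to their highest value), as FPKM + 0.1 on log axes, for the 49 histone genes that reached 1 FPKM in any of the 5 libraries, 5 of them in noIR replicate 3 alone. Most points, H4 above all, lie over the line of equal values, while Hist1h2bc lies close to it and Hist1h4i, Hist3h2a and Hist2h2be lie below it.

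Other RNAs that lack a poly(A) tail were also highest in noIR replicate 3. Rmrp and Rpph1, the RNA parts of 2 RNases, looked at after the histone values were seen, were listed there at 1476 and 253 FPKM, against 35.1 to 114 FPKM and 6.78 to 35.6 FPKM in the other 4 libraries. Malat1, looked at with them, had a smaller gap, at 43.8 FPKM in noIR replicate 3 against 19.7 to 28.8 FPKM in the other 4 libraries. Genes of DNA replication did not stand apart to the extent of Rmrp and Rpph1. The mean log2(FPKM + 1) of 49 S phase genes was 5.94 there and 5.76 to 5.93 elsewhere, and Slbp was at 295 FPKM there and at 193 to 249 FPKM elsewhere. The library also listed 9428 genes at 0, against 6960 to 7704 in the others, and its mean log2(FPKM + 1) of 14 germ cell genes was 7.28 against 6.89 to 7.04. The part of these differences in the histone values was not tested.

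No histone gene was called between irradiated and untreated E11.5 cells. Of the 68 genes, 40 passed the filter on low values (1 FPKM in at least 2 libraries) and were tested with limma on log2(FPKM + 1), with Benjamini-Hochberg adjustment over all 11315 genes tested and a threshold of 0.05. None was higher and none lower; over all genes, 1 was higher (0.00884%) and 1 lower (0.00884%). At an unadjusted p under 0.05 there were 7 histone genes and 358 genes in all. Of the 40, 36 had a negative difference, with a median of -0.54 on the log2 scale against -0.02 for all genes tested. Of the 40, 5 had passed the filter through noIR libraries alone and 11 no longer passed without noIR replicate 3. Without that library this was 17 of 29 genes with a median of -0.06, and again 0 calls.

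The histone gene with the smallest p was Hist1h2bj, which codes for H2B. It was listed at 4.34, 3.32 and 6.06 FPKM in noIR and at 0 and 1.60 FPKM in IR, so the groups did not overlap. Its log2 difference, IR minus noIR, was -1.76 (SE 0.42, adjusted p = 0.974 by limma). The next, Hist1h3c, the most abundant H3 gene, was at 11.8, 8.53 and 22.4 FPKM in noIR and at 5.92 and 5.31 FPKM in IR. Its difference was -1.10 (SE 0.35, adjusted p = 0.974 by limma), and -0.74 without noIR replicate 3. On the higher side, Hist1h2ai, an H2A gene, was at 1.56, 1.04 and 0.873 FPKM in noIR and at 2.16 and 1.499 FPKM in IR, which overlap. Hist1h2bh, an H2B gene, was at 0, 0.277 and 1.40 FPKM in noIR and at 1.32 and 0.533 FPKM in IR, which overlap as well. The abundant Hist1h2bc was at 43.2, 51.7 and 42.2 FPKM in noIR and at 17.4 and 38.6 FPKM in IR, with every IR library below every noIR library and a difference of -0.79 (SE 0.30, adjusted p = 0.974 by limma).

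The group labels were set against 3 targets of p53, the main activator of genes after DNA damage. Ccng1 was at 46.2 to 50.9 FPKM in FC, 197 to 239 in FIR, 35.3 to 40.8 in MC and 218 to 284 in MIR, and Cdkn1a and Mdm2 were also called higher in FIR and in MIR. At E11.5 Ccng1 was at 20.8 to 29.6 FPKM in noIR and 30.3 to 33.3 in IR, and none of the 3 was called.

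At E13.5, 5 of 23 histone genes tested rose in FIR, in MIR or in both, and 2 fell in MIR, shares that did not exceed those of all genes. In FIR against FC 21.8% of all genes were called higher and 22.9% lower, and in MIR against MC 28.7% and 31.0%. Summed over the 68 genes, FC libraries held 55.5 to 65.1 FPKM, FIR 66.8 to 70.9 FPKM, MC 31.8 to 48.9 FPKM and MIR 52.2 to 76.4 FPKM. H1 came to 9.76 ± 1.22 FPKM (SD, n = 3) in FC, 11.9 ± 1.26 in FIR, 8.22 ± 5.16 in MC and 18.3 ± 4.95 in MIR. H2B came to 16.8 ± 1.76 FPKM in FC, 21.3 ± 4.12 in FIR, 13.4 ± 2.96 in MC and 25.5 ± 4.98 in MIR. H4 was 15.2 ± 1.78 FPKM in FC and 16.2 ± 0.339 in FIR, and 7.84 ± 1.26 in MC and 6.76 ± 0.599 in MIR. H3 was 11.51 ± 0.452 FPKM in FC, 8.76 ± 1.51 in FIR, 7.50 ± 2.84 in MC and 6.26 ± 0.969 in MIR. H2A was 6.41 ± 1.63 FPKM in FC, 10.3 ± 1.13 in FIR, 5.68 ± 2.46 in MC and 8.10 ± 2.53 in MIR. Single genes made up much of these sums: in MIR, Hist1h1c had a mean of 15.4 FPKM and Hist1h2bc of 18.0 FPKM. No test was made on the sums.

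Of the 68 genes, 23 passed the filter (1 FPKM in at least 3 of 12 libraries) and entered the fit of all 4 E13.5 groups, with 12852 genes in all. In FIR against FC, 3 of the 23 were called higher and 0 lower; 3 histone genes and 6813 genes in all had an unadjusted p under 0.05. In MIR against MC, 5 were called higher and 2 lower; 8 histone genes and 8249 genes in all had an unadjusted p under 0.05. The median log2 difference of the 23 was -0.07 in females and -0.38 in males, against -0.03 and -0.04 over all genes. The scaling bears on the lower calls: under quantile normalization, which moved the median of all genes to -0.11 and -0.16, the counts were 3 higher and 5 lower in females and 4 higher and 9 lower in males.

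Hist3h2a, an H2A gene outside the large clusters, rose in both sexes. It was at 0.665, 0.938 and 0.817 FPKM in FC and at 6.82, 4.96 and 4.67 FPKM in FIR. It was at 0.655, 0.734 and 0.952 FPKM in MC and at 6.74, 2.58 and 5.90 FPKM in MIR. The groups did not overlap in either sex. The log2 differences were 1.83 (SE 0.25, limma adjusted p = 0.00018) and 1.70 (SE 0.25, limma adjusted p = 0.000149).

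Hist2h2be, an H2B gene with no shared window, rose in females, at 1.03, 0.781 and 0.687 FPKM in FC and at 7.38, 3.13 and 3.31 FPKM in FIR. In males it was at 0.940, 1.18 and 0.748 FPKM in MC and at 2.85, 1.18 and 3.0003 FPKM in MIR, where MIR replicate 2 lay at the level of the highest MC library. The log2 differences were 1.54 (SE 0.28, limma adjusted p = 0.00122) and 0.73 (SE 0.28, limma adjusted p = 0.0408). The male call was lost in 11 of 20 alternatives, among them each that left out MIR replicate 1, MIR replicate 3 or any MC or FC library. Over the 20 alternatives the male log2 difference ran from 0.14 to 1.13. Read as fragments, FC held 46, 54 and 25 and FIR 323, 182 and 188.

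Hist1h1c, which codes for a linker histone, rose in both sexes, with no overlap between FC and FIR or between MC and MIR. It was at 3.06, 2.91 and 2.40 FPKM in FC and at 5.40, 6.09 and 6.78 FPKM in FIR. It was at 2.03, 2.98 and 2.78 FPKM in MC and at 14.3, 11.7 and 20.0 FPKM in MIR, where it was the most abundant H1 gene in every library. The log2 differences were 0.90 (SE 0.18, limma adjusted p = 0.00221) and 2.16 (SE 0.18, limma adjusted p = 5.55e-06). The other abundant H1 genes did not pass the test in either comparison. Hist1h1a was at 3.48, 5.27 and 6.60 FPKM in FC and 2.54, 3.37 and 3.37 FPKM in FIR, and at 1.90, 5.88 and 1.17 FPKM in MC and 1.07, 0.9996 and 1.58 FPKM in MIR. Hist1h1b was at 0.546 to 2.93 FPKM in FIR and 0.709 to 1.42 FPKM in FC, and at 0.688 to 0.870 FPKM in MIR and 0.588 to 3.53 FPKM in MC.

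Hist1h2bc (chr13:23684199-23692908, plus strand, 2 exons), the highest H2B gene, was called in males and not in females. It was at 4.54, 6.13 and 5.45 FPKM in FC and at 4.31, 3.49 and 6.90 FPKM in FIR, which overlap. It was at 5.64, 2.61 and 3.96 FPKM in MC and at 20.4, 12.2 and 21.5 FPKM in MIR, all above MC, with a log2 difference of 1.91 (SE 0.27, limma adjusted p = 0.000119). In FIR against FC the difference was -0.14 (SE 0.27, limma adjusted p = 0.688). Hist2h3c1, an H3 gene, was at 0.367, 0.301 and 0.164 FPKM in FC and 0.476, 0.615 and 0.814 FPKM in FIR, and at 0.297, 0.246 and 0 FPKM in MC and 2.54, 1.90 and 2.97 FPKM in MIR. Neither pair of groups overlapped, and the male difference was called, at 1.55 (SE 0.17, limma adjusted p = 2.32e-05), while that in females was 0.35 (SE 0.17, limma adjusted p = 0.106). The gene reached 1 FPKM in the 3 MIR libraries alone, so it entered the test through the group where it is high. Its call and the lack of overlap between MC and MIR are therefore no independent sign of a rise. Read as fragments, MC held 7, 7 and 0 and MIR 64, 68 and 73.

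**Figure D3:**
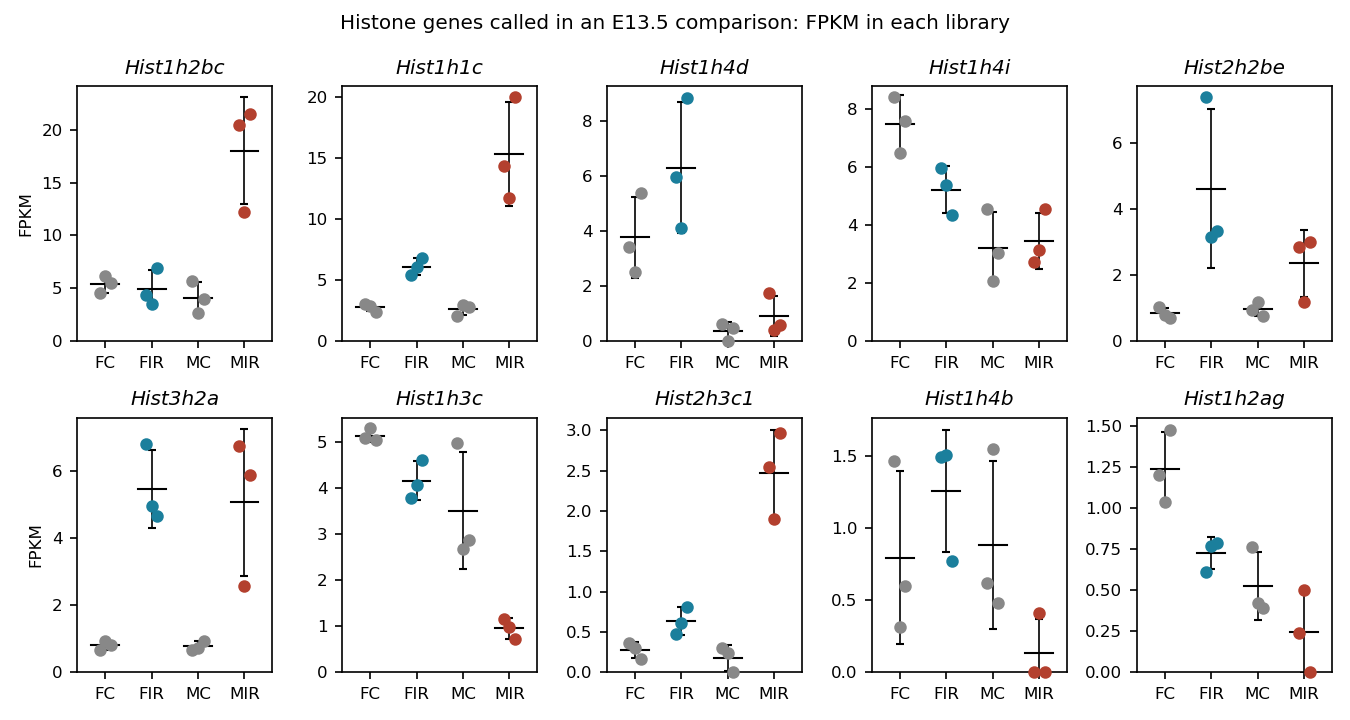
FPKM of the 10 histone genes called in FIR against FC, MIR against MC or FC against MC at E13.5; points are libraries (3 a group), the wide line is the group mean and the bars are the SD. Hist3h2a stands at 4.67 to 6.82 FPKM in FIR and 2.58 to 6.74 FPKM in MIR against less than 1 FPKM in FC and MC, Hist1h2bc is high in MIR alone, and Hist1h3c is lowest in MIR.

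The 2 genes called lower in males, of 23 tested, code for H3 and H4. Hist1h3c was at 5.09, 5.31 and 5.05 FPKM in FC and at 3.79, 4.06 and 4.63 FPKM in FIR, all below FC, with a difference of -0.26 (SE 0.18) that was not called (limma adjusted p = 0.268). It was at 4.98, 2.69 and 2.89 FPKM in MC and at 1.17, 0.983 and 0.716 FPKM in MIR, all below MC, and fell by 1.18 on the log2 scale (SE 0.18, limma adjusted p = 0.000205). Read as fragments, MC held 20, 13 and 15 and MIR 5, 6 and 3. Hist1h4b was at 0.621, 1.54 and 0.480 FPKM in MC and at 0, 0.408 and 0 FPKM in MIR, which is 1, 3 and 1 fragments against 0, 1 and 0. It fell by 0.71 on the log2 scale (SE 0.27, limma adjusted p = 0.0410), a call that rests on these few fragments and was lost in 8 of 19 alternatives. Summed over the 18 genes with coding-only models, MC libraries held 32, 23 and 24 fragments and MIR libraries 9, 22 and 10, while FC held 38, 69 and 43 and FIR 38, 70 and 76.

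All 5 genes called higher in FIR or MIR have AATAAA after the stem-loop or stop and 742 to 2192 annotated bases after the stop codon. The 2 genes called lower have no AATAAA there and 77 and 114 bases. Of the 16 genes tested and called in neither comparison, 2 have AATAAA, and the median after the stop is 89.5 bases. Hist1h2bh, with 1258 bases and AATAAA, was called in neither, nor was Hist1h4d with 822 bases and no AATAAA. Values from long gene models rest on more fragments per FPKM (the FPKM steps imply a model of 2704 bases for Hist2h2be, 1880 for Hist2h3c1 and 484 for Hist1h3c). For Hist1h2bh and Hist1h4d, and also for Hist1h4b, which was called lower, the steps match a model of the coding sequence alone. The annotated 3′ ends of these genes may not have been counted. No step was recovered for Hist1h1c, Hist1h2bc and Hist3h2a, called higher, so the length counted in them is not known. Hist2h3c1 entered the test through the MIR libraries alone, where it is high. Whether the calls go with AATAAA or with the length after the stop was not tested.

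**Figure D4:**
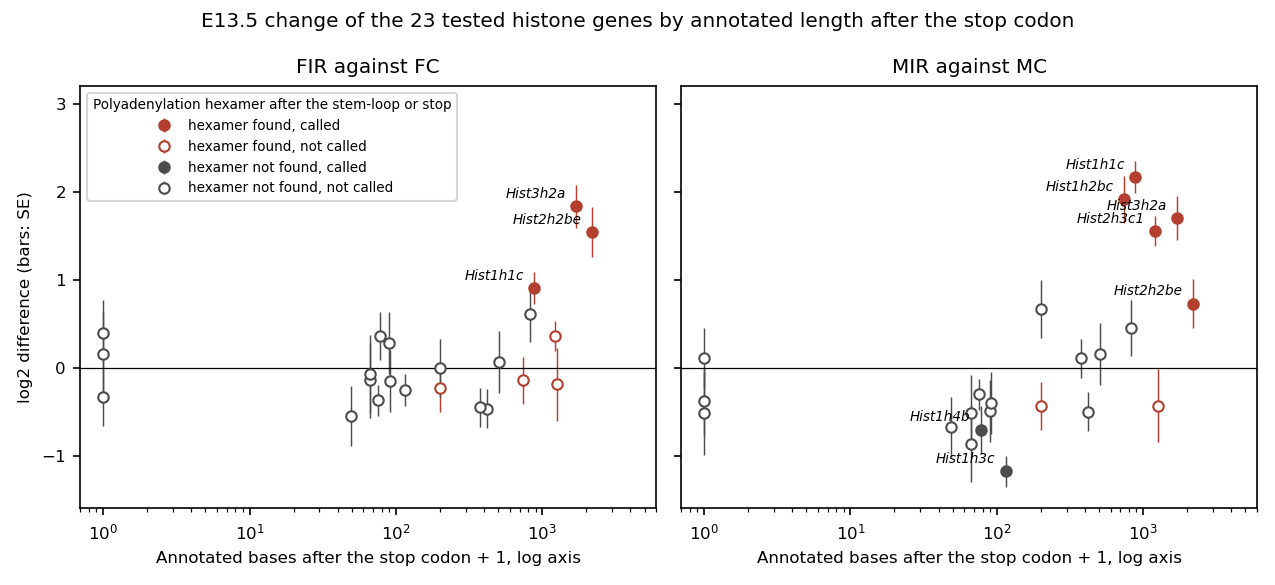
log2 difference of FIR against FC (left) and MIR against MC (right) with its SE, for the 23 histone genes tested, by the annotated bases after the stop codon plus 1 on a log axis; colour shows whether the polyadenylation hexamer was found after the stem-loop or stop, and filled points were called. The filled points above 0 all lie at 742 bases or more, and the filled points below 0, Hist1h4b and Hist1h3c, at 77 and 114 bases. Whether the calls go with this length or with the hexamer was not tested.

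Markers of other cells moved with the same contrasts, and fewer cells of a type and less RNA per cell cannot be told apart in such bulk libraries. In FIR against FC, 8 of 8 pregranulosa genes and 3 of 3 genes of the supporting cells of both sexes were called higher, with summed levels of 5.63 to 6.501 FPKM in FC and 94.2 to 227 FPKM in FIR for the first and 2.67 to 2.90 and 56.5 to 131 FPKM for the second. In MIR against MC, 8 of 8 Sertoli genes and the same 3 supporting cell genes were called higher, with 74.6 to 126 FPKM in MC and 1230 to 4185 FPKM in MIR for Sertoli genes. No marker of these lists was at 0 in the FIR or MIR libraries of its sex. Of 14 germ cell genes, 9 fell in FIR and 13 in MIR. Of 8 macrophage genes tested, 8 rose in each sex, and of 8 mesenchyme genes 4 rose in FIR and 7 in MIR, while of 5 erythroid genes 2 fell in FIR and 1 rose in MIR, and of 3 endothelial genes 1 rose and 1 fell in each. Of the 3 MIR libraries, replicate 2 had the lowest Sertoli sum, 1230 against 3805 and 4185 FPKM, and it also had the lowest Hist1h1c, Hist1h2bc, Hist3h2a, Hist2h2be and Hist2h3c1. Of the FIR libraries, replicate 1 had the highest supporting cell sum, 131 against 56.5 and 61.02 FPKM, and the highest Hist3h2a and Hist2h2be, but the lowest Hist1h1c. With MIR replicates 1 and 3 left out together, Hist1h1c, Hist1h2bc and Hist3h2a were still called higher and Hist1h3c lower, on the single MIR library left, which is assumed to vary like the libraries of the other groups. The part of the other cells in the histone changes was not tested.

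The change of 4 histone genes differed between the sexes. The difference of the 2 changes, (FIR minus FC) minus (MIR minus MC), was called below 0 for 3 of 23 histone genes, where 4.96% of all genes were, and above 0 for 1, where 2.81% of all were. It was -2.06 (SE 0.38, limma adjusted p = 0.00778) for Hist1h2bc, -1.20 (SE 0.24, limma adjusted p = 0.0108) for Hist2h3c1 and -1.26 (SE 0.26, limma adjusted p = 0.0126) for Hist1h1c, where MIR minus MC was the larger rise. Of these 3, Hist2h3c1 reached 1 FPKM in the MIR libraries alone and so entered the test through the group where it is high. Its place in the count is therefore no independent sign of a difference. For Hist1h3c the difference of the 2 changes was 0.92 (SE 0.26, limma adjusted p = 0.0466). The last call was lost in 14 of 20 alternatives, those of Hist1h2bc and Hist1h1c only when MIR replicates 1 and 3 were left out together, where Hist2h3c1 was not tested, and that of Hist2h3c1 only with a pseudocount of 0.1. For Hist3h2a and Hist2h2be the difference was not called.

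Between the sets coded as controls, FC and MC, which also enter the radiation comparisons, 3 of 23 histone genes were called higher in females and 0 lower, where 16.1% of all genes were called higher and 18.8% lower; 8 histone genes and 5709 genes in all had an unadjusted p under 0.05. Of the 23, 18 had a difference above 0, with a median of 0.31 against -0.02 over all genes. Of the 3 called, 2 code for H4. Hist1h4d was at 3.41, 2.52 and 5.39 FPKM in FC, or 7, 8 and 9 fragments, and at 0.621, 0 and 0.480 FPKM in MC, or 1, 0 and 1 fragments. FIR held 12, 11 and 23 fragments of it and MIR 3, 1 and 1, so no female library overlapped a male one. Its difference, FC minus MC, was 1.79 (SE 0.32, limma adjusted p = 0.00101). Hist1h4i was at 8.43, 6.498 and 7.57 FPKM in FC and at 4.54, 2.05 and 3.03 FPKM in MC, with a difference of 1.05 (SE 0.22, limma adjusted p = 0.00283). Hist1h2ag, an H2A gene that shares 100% of its windows, was at 1.20, 1.04 and 1.48 FPKM in FC and at 0.767, 0.424 and 0.395 FPKM in MC, a difference of 0.56 (SE 0.18, limma adjusted p = 0.0278) on 6, 8 and 6 against 3, 2 and 2 fragments. It reached 1 FPKM in the FC libraries alone and so entered the test through the group where it is high, and its call was lost in 4 of 16 alternatives. FC and MC did not overlap for Hist1h4d and Hist1h4i, which for genes that were called is no separate sign of a difference. For Hist1h2ag the filter itself placed every FC library above every MC library. Of the remaining abundant genes, Hist1h2ae was at 1.26 to 1.73 FPKM in FC and 0.570 to 1.51 FPKM in MC, Hist1h2ak at 0.554 to 2.11 and 0.301 to 1.09 FPKM, Hist1h2bj at 1.22 to 3.74 and 0.965 to 3.49 FPKM, and Hist1h3a at 0.982 to 3.22 and 0.518 to 2.08 FPKM, all overlapping. Hist1h3e, at 1.28 to 2.09 FPKM in FC and 0.664 to 1.10 FPKM in MC, and Hist1h4c, at 0.975 to 1.26 and 0 to 0.621 FPKM, did not overlap but were not called (limma adjusted p = 0.0965 and 0.0759).

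Many genes listed for the machinery that serves these genes, some of which are also on the list of S phase genes, were called lower. Of 37 tested genes for the transcription and processing of replication-dependent histone messages, 26 fell and 1 rose in FIR against FC, and 26 fell and 1 rose in MIR against MC, with median log2 differences of -0.42 and -0.47. Over all genes 22.9% fell in FIR and 31.0% in MIR, with medians of -0.03 and -0.04. Slbp, whose protein binds the stem-loop, was at 311 to 315 FPKM in FC, 127 to 260 in FIR, 284 to 320 in MC and 139 to 220 in MIR, with log2 differences of -0.61 (SE 0.23, limma adjusted p = 0.0495) and -0.81 (SE 0.23, limma adjusted p = 0.0100). Casp8ap2, which codes for the scaffold protein of histone locus bodies FLASH, differed by -0.81 in females and -0.61 in males and was called in both. Npat, which codes for the activator of histone gene transcription, and Lsm11, a part of the particle that cuts the message, were called lower in FIR (-0.52 and -0.48) and not in MIR (-0.25 and -0.34). Eri1, a nuclease that trims and degrades histone messages, differed by -0.32 in FIR, which was called, and by -0.17 in MIR, which was not; Lsm10 was called in neither. The genes with the smallest adjusted p included Fip1l1 (-0.59) and Cpsf2 (-0.55) in FIR and Coil (-0.93) and Upf1 (-1.16) in MIR.

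Genes of DNA synthesis and division are set against the same shares of all genes called lower, 22.9% in FIR and 31.0% in MIR, and medians of -0.03 and -0.04. Of 49 S phase genes, 31 fell in FIR and 40 in MIR and none rose, with medians of -0.61 and -0.74. Their mean log2(FPKM + 1) was 5.94 to 5.95 in FC, 4.92 to 5.62 in FIR, 5.89 to 5.97 in MC and 5.04 to 5.54 in MIR, and Mcm10 (-0.88 in FIR) and Orc1 (-1.03 in MIR), both of replication origins, had the smallest adjusted p. Of 21 mitosis genes, 17 fell in FIR and 20 in MIR. Of 25 histone chaperone genes, 18 fell in FIR and 16 in MIR, among them Anp32e (-0.78 and -0.79), the chaperone that removes H2A.Z, and 1 rose in MIR. The S phase list shares Slbp, E2f1, Ccne1 and Ccne2 with the list for histone messages, and Chaf1a and Chaf1b with the chaperones. The counts of these lists are therefore not independent. At E11.5 no gene of these lists was called in either direction.

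Genes listed here as replication-independent histones were called in both directions. Of 11 tested genes of this list, 3 rose and 2 fell in FIR, and 4 rose and 4 fell in MIR. With 11 genes these counts are near the shares of all genes, 21.8% higher and 22.9% lower in FIR and 28.7% and 31.0% in MIR. H1f0, the linker histone of non-dividing cells, was at 7.7 to 9.4 FPKM in FC, 31.2 to 54.3 in FIR, 7.7 to 8.9 in MC and 37.7 to 84.9 in MIR, with log2 differences of 2.06 (SE 0.27, limma adjusted p = 0.000149) and 2.79 (SE 0.27, limma adjusted p = 1.09e-05). H3f3b, one of 2 genes for H3.3, rose by 0.47 in MIR and was not called in FIR, and H3f3a, H2afz and H2afx were called in neither. On the FPKM scale, which is per length, H3f3b and H2afx stood far above the histone genes followed here, at 454 to 975 FPKM and 44.6 to 93.5 FPKM over the E13.5 libraries. The H2A, H2B, H3 and H4 genes share a median of 70.3% to 87.9% of their windows with other genes. How shared fragments were counted is not known, so the gap is no measure of the ratio of the messages.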

How the data were processed

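The deposited tables hold FPKM per gene made by the authors, 1 table for each embryonic day with 23361 genes. Per the labels' protocols, ribosomal RNA was removed from total RNA with the RiboZero kit and libraries were made with NEBNext Ultra II. Build mm10 and the tool DESeq2 are listed in the submitters' processing notes; aligner, counting program and gene models were not given in the sources used here. Groups follow the titles at E11.5 and in E13.5 females and the library codes in E13.5 males, where titles and codes disagree.

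Differences were fitted with limma 3.58.1 (trend, R 4.3.3) on log2(FPKM + 1) over genes with at least 1 FPKM in 2 (E11.5) or 3 (E13.5) libraries, with 2-sided p-values adjusted by Benjamini-Hochberg over all genes tested and a threshold of 0.05. A log2 difference on this scale understates the change of genes of low level. The 4 E13.5 groups shared 1 fit, and the 2 days, which were normalized in separate tables, were not tested against each other. The fit was first tested on simulated data. Fragments were recovered from the steps between FPKM values with Python 3.11.15, numpy 2.4.6 and pandas 2.3.3, as whole numbers within 0.05. Stem-loops, hexamers and shared windows were read from GENCODE M21 transcripts and promoters from RefSeq.

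The histone genes named are the 3 of highest mean FPKM in each type on each day, every gene called, and, where none was called, the 2 of smallest p in each direction; of the other lists, a fixed few and called genes of smallest adjusted p. Hist1h4f, Hist1h3e and Hist2h2bb fall under the first part. The histone genes and the gene lists were chosen with earlier results of these data known. Alternatives were another pseudocount, other filters, quantile normalization, rescaling to TPM, library weights, a replicate block, a fit of only the groups compared and leaving out each library.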

Additional observations from a re-analysis of the deposited data

Results flagged for a closer look

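The change of 4 histone genes differed between females and males when the difference of the changes, (FIR minus FC) minus (MIR minus MC), was itself tested with limma over 12852 genes, of which 2.81% were called above and 4.96% below 0. Of the 23 histone genes tested, 1 was above and 3 below. It was -2.06 on the log2 scale for Hist1h2bc, an H2B gene, with changes of -0.14 in females and 1.91 in males (limma adjusted p of the difference 0.00778). It was -1.20 for Hist2h3c1, an H3 gene, with changes of 0.35 and 1.55 (limma adjusted p = 0.0108), a gene that reached 1 FPKM in the 3 MIR libraries alone and so entered the test through the group where it is high. It was -1.26 for Hist1h1c, a linker histone gene, with changes of 0.90 and 2.16 (limma adjusted p = 0.0126). It was 0.92 for Hist1h3c, an H3 gene, with changes of -0.26 and -1.18 (limma adjusted p = 0.0466), a call lost in 14 of 20 alternatives. In each case all 3 MIR libraries lay on the same side of all 3 MC libraries. All 4 genes were also called in MIR against MC, where 28.7% of all genes were called higher and 31.0% lower. The lack of overlap is therefore no separate sign of a difference. The 8 Sertoli genes, called higher in MIR, and the 8 pregranulosa genes, called higher in FIR, differed between the sexes in the same test, and their part in these differences was not tested. The titles give MIR as untreated, so the direction in males rests on the library codes.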

How the results depend on the processing

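No histone gene was called at E11.5 under any alternative. In FIR against FC, 3 genes were higher and 0 lower; library weights gave 6 and 5, quantile normalization gave 5 lower, and TPM and a fit of only the groups compared gave 1 lower each. Leaving out each library gave 0 to 1 lower. In MIR against MC, 5 genes were higher and 2 lower. A filter at 5 FPKM, which tests fewer genes, gave 3 higher and 1 lower; quantile normalization gave 9 lower; library weights and a fit of only the groups compared gave 1 lower each. Leaving out each library gave 3 to 5 higher, with 3 without MIR replicate 1 or MIR replicate 3, and 1 to 5 lower. Leaving out both of these MIR libraries, an alternative chosen after seeing the data, gave 3 higher and 1 lower. In FC against MC, 3 genes were higher and 0 lower; library weights gave 12 higher, a fit of only the groups compared 5, leaving out each library 2 to 5, and no filter gave 1 lower. For the difference of the changes, 1 gene was above 0 and 3 below; no filter, a filter at 5 FPKM, library weights and leaving out both MIR libraries each gave 0 above, leaving out each library 0 to 2 above, and leaving out both MIR libraries 0 below. Where no construction of the alternative shows it, the cause was not tested. No value reversed. Of 372 alternative values of the named genes, 332 kept their direction and side of the threshold and 40 lost the call.

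Whether replicate numbers pair the libraries is not settled. At E13.5 the correlation of same-numbered libraries, as deviations from their group means, ran from -0.22 to 0.48, and E11.5 had only 2 pairs. The highest values were between MIR and FIR, at 0.48 for replicate 1 and 0.41 for replicate 2, against 0.10 for replicate 3. Libraries of different numbers were not compared. With a replicate block the counts were 3 higher and 0 lower in FIR, 5 and 2 in MIR, 3 and 0 between FC and MC, and 0 above and 3 below for the difference of the changes, where Hist1h3c was lost.

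Counting limits the low genes: at E13.5, 81.5% of values of the 18 genes with coding-only models were 3 fragments or fewer.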
